A study of Macaca mulatta with 24 samples.

Results

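The genes described here encode antimicrobial and defence proteins of the intestinal epithelium, measured in the ileum of rhesus macaques (Macaca mulatta) after total-body irradiation (TBI). They were the probes carrying 1 of 10 gene symbols in the deposited normalized table: LYZ, PLA2G2A, REG3A, REG3G, REG1A, DEFB1, ITLN1, DMBT1, PIGR and DUOX2. Of these, 7 symbols had a probe (8 probes in all, with REG1A on 2), out of 12144 gene symbols named in the table, and REG3A, REG3G and DUOX2 had none under their own symbol. All 8 probes were well above background on all 24 arrays and none was saturated, so that no member value below rests on a bound.

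The 24 animals were young-adult males and each gave 1 array of RNA from the whole gut wall of an ileum segment, without pooling. Controls (n = 4) received no dose and were labelled day 4; they served for every comparison with control, so those comparisons share the same 4 animals. Irradiated animals received a single uniform dose of 6.7 Gy or 7.4 Gy from a cobalt-60 source and were examined on day 4 (n = 4 per dose), day 7 (n = 4 per dose) or day 12 (n = 2 per dose). The design asks whether expression differed from the unirradiated ileum at each dose and day, between the doses and between days.

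As background, Paneth cells sit at the base of the crypts of the small intestine and release granules of antimicrobial protein into the lumen, among them lysozyme (LYZ), which cleaves the bacterial cell wall, and the secreted phospholipase PLA2G2A, which attacks bacterial membranes. Other members act along the epithelium: the β-defensin DEFB1, the C-type lectin-like protein REG1A, the glycan-binding lectin ITLN1 of secretory cells, the mucosal scavenger glycoprotein DMBT1 and PIGR, the receptor that carries polymeric immunoglobulin A (IgA) across epithelial cells into the lumen. REG3A and REG3G are lectins that bind bacteria, and DUOX2 is an oxidase that makes hydrogen peroxide at the epithelial surface.

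Levels are given as log2 signal relative to the 75th percentile of each array, so that 0 is that percentile, and a level is compared only between animals for the same probe. Because the RNA came from whole gut wall, fewer cells of a type and less RNA per cell cannot be told apart. Ileal markers were present: FABP6, the ileal bile acid binding protein, had a mean of 8.74 in controls and the Paneth cell defensin DEFA6 had a mean of 8.09, each detected on all 4 control arrays, whereas FABP2, an enterocyte fatty acid binding protein, was detected on 1 of the 4. Between 72.7% and 88.1% of probes on an array were well above background. The arrays lay on 6 slides with 4 positions each. All 4 controls were at position 1, the 6.7 Gy day 4 arrays at position 1 or 2 and all 7.4 Gy day 4 arrays at position 2. Every later array was at position 3 or 4. Position and group thus coincide for 7.4 Gy day 4 against control. They cannot be told apart for days 7 and 12 against control or against day 4.

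No member gene was altered in any of the 13 comparisons, where altered means a limma adjusted p under 0.05 over all 36108 probes tested together with a fold change of at least 2. On day 4 this was 0 of 7 genes at both doses, against 0.978% of all probes tested at 6.7 Gy and 2.33% at 7.4 Gy. It was 0 of 7 on day 7, against 0.235% at 6.7 Gy and 0.568% at 7.4 Gy, and 0 of 7 on day 12, against 0.108% and 0.0443%. Before adjustment, 1, 2, 1, 0, 1 and 1 of the 7 had a limma p under 0.05 and at least a 2-fold difference in that order. This held for 1064, 1437, 475, 859, 608 and 663 of the 36108 probes tested. The methods' t-test with Benjamini-Hochberg adjustment also called 0 of the 7 in each. The median difference of the 7 genes was 0.39, -0.16, 0.26, 0.42, -0.23 and 0.17 in that order, against -0.10, -0.07, 0.00, -0.03, 0.06 and -0.01 for all probes tested. With background shares this low, a count of 0 among 7 genes is no result about these genes. Statements below on overlap between groups, or on animals above or below all controls, are descriptions. The share of all probes with such a pattern was not counted.

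**Figure D1:**
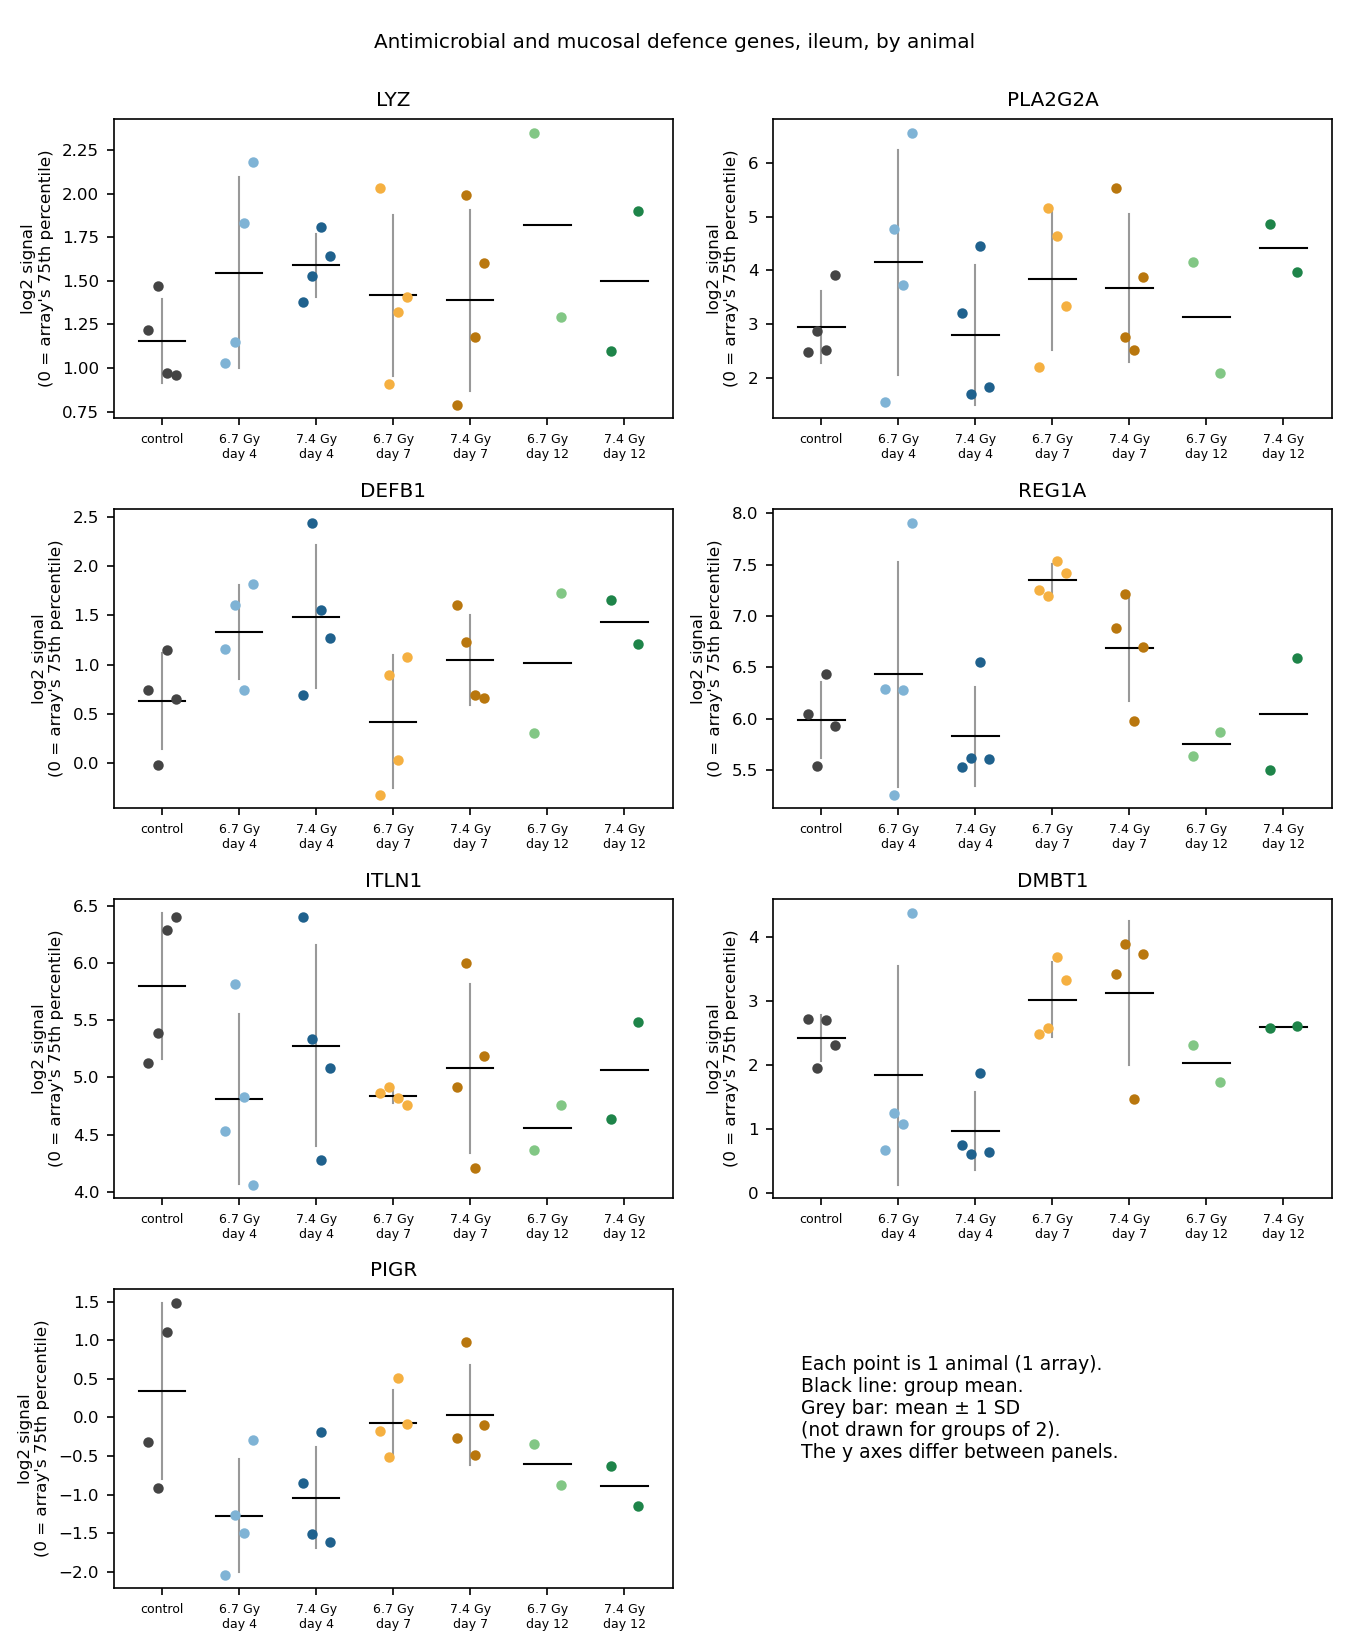
Log2 signal of the 7 member genes in each of the 24 animals (y axis, 0 is the 75th percentile of the array) by group (x axis). Points are animals, black lines group means and grey bars 1 SD for groups of 4; the 4 REG1A values on day 7 after 6.7 Gy lie above all 4 controls, and PLA2G2A spreads from 1.55 to 6.56.

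Among the Paneth cell products, LYZ had the least spread of the members and PLA2G2A the most. LYZ was 1.15 ± 0.25 (SD, n = 4) in controls and 1.55 ± 0.55 on day 4 after 6.7 Gy, against 1.59 ± 0.18 after the higher dose. On day 7 it was 1.42 ± 0.46 and 1.39 ± 0.52 (n = 4 each), and on day 12 it was 2.35 and 1.29 after 6.7 Gy and 1.1 and 1.9 after 7.4 Gy. All 6 irradiated groups had means above the control, by 0.24 to 0.66 on the log2 scale, and none of these differences passed the test (limma adjusted p between 0.41 and 0.89). With array position in the fit the day 4 differences turned to -0.06 after 6.7 Gy and -0.48 after 7.4 Gy. With 1 animal left out the 7.4 Gy day 12 difference reached -0.05. In order of mean level the 6.7 Gy day 12 group, at 1.82, stood highest and the controls lowest, and every irradiated group overlapped the controls.

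PLA2G2A was 2.48, 2.87, 2.51 and 3.92 in the controls. On day 4 it was 1.55, 4.77, 3.72 and 6.56 after 6.7 Gy and 3.21, 1.70, 4.45 and 1.83 after 7.4 Gy, so that animals of 1 group lay on both sides of the controls. On day 7 it was 2.21, 5.16, 4.63 and 3.34 after 6.7 Gy and 5.53, 2.76, 2.52 and 3.87 after 7.4 Gy, and on day 12 it was 4.16 and 2.10 after 6.7 Gy. The pooled SD within groups was 1.39, larger than in 99.5% of all probes tested, for which the median was 0.29. The change was +1.21 (SE 0.91, 95% confidence interval -0.70 to 3.11) on day 4 after 6.7 Gy and +1.47 (-0.86 to 3.81) on day 12 after 7.4 Gy, where both animals, at 4.87 and 3.96, were above every control; the limma adjusted p was 0.42 and 0.82. Without replicate 4 of the day 4 group, the animal at 6.56, the first of these changes was +0.41. Over all alternatives that change ran from +0.22 to +2.08.

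DEFB1 was 0.74, -0.02, 1.15 and 0.65 in controls. On day 4 it was 1.16, 1.60, 0.74 and 1.82 after 6.7 Gy and 0.69, 2.44, 1.55 and 1.27 after 7.4 Gy, with 3 of 4 animals of each dose above every control. The differences were +0.70 (limma adjusted p = 0.29) and +0.86 (limma adjusted p = 0.19), or 1.63-fold and 1.81-fold, under the fold limit and not past the test. On day 7 DEFB1 was 0.42 ± 0.67 after 6.7 Gy, below the control mean of 0.63, and 1.05 ± 0.45 after 7.4 Gy. On day 12 it was 0.31 and 1.73 after 6.7 Gy and 1.66 and 1.21 after 7.4 Gy, the latter both above all controls (+0.80, limma adjusted p = 0.74). A further probe without a symbol, described as a DEFB1-like cDNA and looked at after its values were seen, differed from control by 0.70 and 0.92 on day 4, with limma adjusted p of 0.22 and 0.10.

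REG1A was higher on day 7 after 6.7 Gy than in any control, without passing the adjusted test. The brighter of its probes was 6.05, 5.54, 6.44 and 5.93 in controls and 7.25, 7.20, 7.54 and 7.42 on day 7 after 6.7 Gy, without overlap. The difference was +1.37 (SE 0.40, 95% confidence interval 0.53 to 2.20), or 2.58-fold higher in 4 of 4 animals, with a limma p of 0.0028 and an adjusted p of 0.18. When only these 2 groups entered the fit, the limma adjusted p was 0.049 and REG1A was altered; over the limma alternatives it ranged from 0.049 to 0.39 and the change from 1.22 to 1.52. After 7.4 Gy on day 7 the values were 6.88, 7.21, 5.98 and 6.70, or +0.71, with 3 of 4 animals above all controls (limma adjusted p = 0.46). The second REG1A probe differed by +1.47 and +1.15 on day 7, with limma adjusted p of 0.21 and 0.27.

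On day 4 REG1A was 6.29, 5.26, 6.28 and 7.91 after 6.7 Gy and 5.53, 5.62, 6.55 and 5.61 after 7.4 Gy, around the control range apart from the value of 7.91. Without that animal the 6.7 Gy change on day 4 went from +0.45 to -0.05. On day 12 REG1A was 5.64 and 5.87 after 6.7 Gy and 5.50 and 6.59 after 7.4 Gy, with mean differences from control of -0.23 and +0.06. In order of mean level the 6.7 Gy day 7 group (7.35) stood above the 7.4 Gy day 7 group (6.69) and the 6.7 Gy day 4 group (6.43). None of the REG1A differences between doses, or of days 7 and 12 from day 4, passed the test. Day 12 was not tested against day 7.

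REG1A lies beside REG1B and REG3G in the RefSeq annotation of the macaque genome (assembly T2T-MMU8v2.0), with LOC716890 a few genes away. REG1A, REG1B and REG3G are paralogs of similar sequence, so that a probe may also bind a neighbour's transcript. The following probes were chosen after their values were seen. Both probes without a symbol that were described as a REG1A precursor differed by +0.77 and +0.99 on day 7 after 6.7 Gy, each with 4 of 4 animals above all controls and with limma adjusted p of 0.32 and 0.18. REG1B differed by +0.69 and +0.73 on day 7 after the lower and the higher dose and by -1.30 and -0.97 on day 12, with standard errors of 0.63 on day 7 and 0.77 on day 12 (limma adjusted p between 0.64 and 0.83).

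RefSeq gives the name REG3G to LOC711637, which had 3 probes, and DUOX2 to LOC713906, which had 1. On day 7 after 6.7 Gy the 3 REG3G probes differed from control by +1.05, -0.39 and -0.43, so that probes of the same gene pointed in opposite directions. LOC716890, of the same neighbourhood, was -0.66 on day 7 and -1.04 on day 12 after 6.7 Gy, with both day 12 animals below all controls (limma adjusted p = 0.44). The DUOX2 probe was lower in mean in all 6 groups, by -0.04 to -1.01, with standard errors of 0.55 to 0.68. None of these probes was altered in a comparison with control. Between day 4 and day 12 after 6.7 Gy, the third REG3G probe fell from 4.48 to 3.12, by 1.36 (limma adjusted p = 0.048), with both day 12 animals (3.28 and 2.96) below all 4 of day 4, against 2.59% of all probes called there. The other REG3G probes differed by -0.05 and -1.18 in that comparison (limma adjusted p = 0.97 and 0.063).

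**Figure D2:**
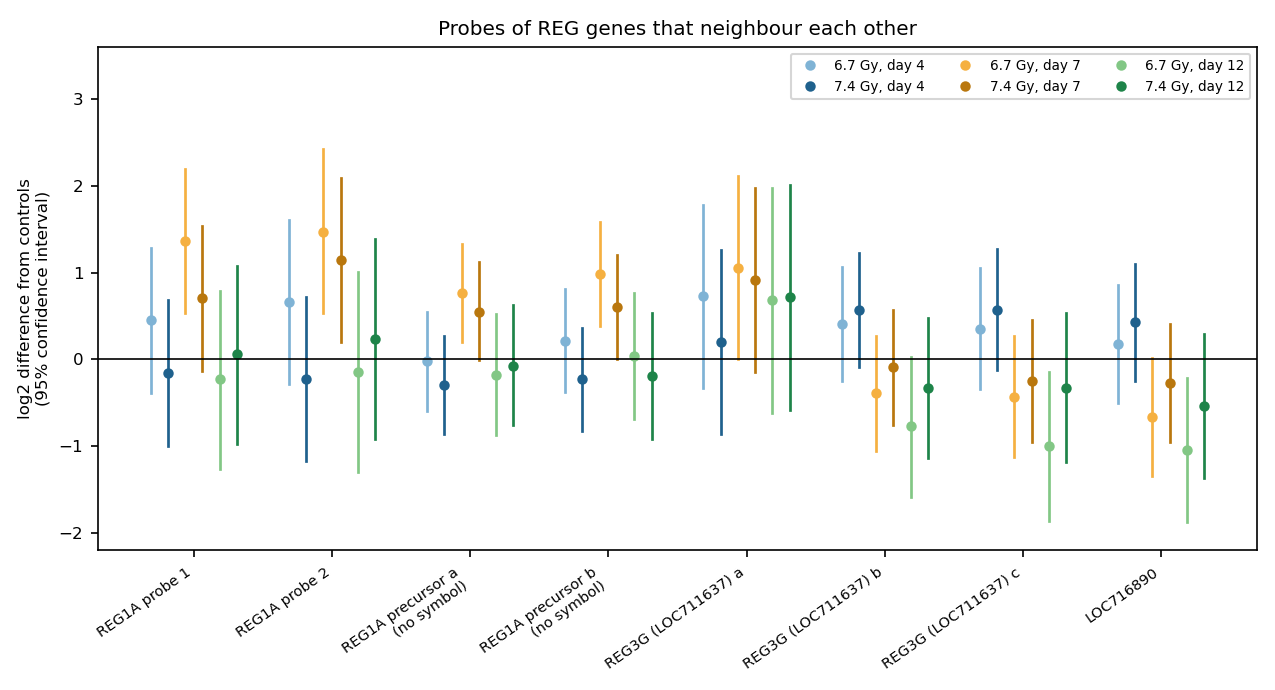
Log2 difference from control (y axis, points with 95% confidence intervals from limma) for 8 probes of REG1A, REG3G and the neighbouring LOC716890 (x axis), coloured by dose and day. The 4 probes named or described as REG1A have their highest means on day 7 after 6.7 Gy (+1.37, +1.47, +0.77 and +0.99), whereas REG3G probes b and c and LOC716890 are below 0 there (-0.39, -0.43 and -0.66).

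ITLN1 had a lower mean than the controls in all 6 irradiated groups, with differences from -0.53 to -1.24 on the log2 scale, and none passed the test. It was 5.13, 5.39, 6.29 and 6.41 in controls and 4.86, 4.92, 4.82 and 4.76 on day 7 after 6.7 Gy, without overlap and with little spread among the irradiated animals. The difference there was -0.96 (95% confidence interval -1.87 to -0.06; limma adjusted p = 0.49), or 1.95-fold lower. On day 12 after 6.7 Gy it was 4.36 and 4.76, also below every control, with a difference of -1.24 (-2.35 to -0.13; limma adjusted p = 0.50) or 2.37-fold lower. On day 4 it was 4.53, 5.82, 4.83 and 4.06 after 6.7 Gy, 3 of 4 below all controls (-1.0, limma adjusted p = 0.18), and 6.41, 5.34, 4.28 and 5.08 after 7.4 Gy, within and below the control range. After 7.4 Gy it was 4.92, 6.0, 4.21 and 5.19 on day 7 and 4.64 and 5.49 on day 12, and both groups overlapped the controls. Since the 6 comparisons share 4 controls, their common sign is not 6 separate observations. With array position in the fit, the day 4 value after 7.4 Gy turned from -0.53 to +0.21, by a term that rests on the 6.7 Gy day 4 animals alone.

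DMBT1 had the largest difference between days of any member. In controls it was 2.72, 1.96, 2.70 and 2.32. On day 4 after 7.4 Gy it was 0.75, 0.60, 1.88 and 0.63, all 4 below every control, a difference of -1.46 (SE 0.62, 95% confidence interval -2.76 to -0.16) or 2.75-fold lower with a limma adjusted p of 0.16 (0.051 to 0.30 over the limma alternatives). With array position in the fit the difference was -3.24. That position term rests on the 6.7 Gy day 4 animals alone, with the animal at 4.39 among them, so no conclusion is drawn from it. On day 4 after 6.7 Gy it was 0.66, 1.24, 1.07 and 4.39, 3 animals below all controls and 1 above them. Without the animal at 4.39 that change was -1.43 in place of -0.58, with a limma adjusted p of 0.12 (0.12 to 0.87 over the limma alternatives).

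On day 7 DMBT1 was 2.49, 2.58, 3.69 and 3.34 after 6.7 Gy and 3.42, 3.89, 1.46 and 3.74 after 7.4 Gy, and on day 12 it was 2.31 and 1.74 after 6.7 Gy and 2.58 and 2.61 after 7.4 Gy. Between days 4 and 7 after 7.4 Gy the mean went from 0.97 to 3.13, a difference of +2.16 (95% confidence interval 0.86 to 3.47) or 4.48-fold, with array positions that did not overlap, with 3 of 4 animals of day 7 above all animals of day 4 and a limma adjusted p of 0.057. This stood at the limit: 0 of 7 members were altered, against 0.942% of all probes tested, but DMBT1 was altered under normexp background correction, among probes detected on all arrays, with an intensity trend and robust moderation, and with slide as a random block. It was also altered without replicate 3 of the day 7 group, whose value was 1.46. After 6.7 Gy the same difference was +1.18 (limma adjusted p = 0.30), and DMBT1 became altered without the day 4 animal at 4.39.

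In the fit of the 7 group means alone, PIGR had the largest difference from control of any member, on day 4. It was -0.32, -0.91, 1.11 and 1.49 in controls, a spread of 1.14 (SD) that was wider than in any other group. On day 4 it was -2.04, -1.26, -1.50 and -0.29 after 6.7 Gy, 3 of 4 below all controls, and -0.85, -1.51, -0.19 and -1.61 after 7.4 Gy, with 2 of 4 below them. The differences were -1.61 (SE 0.48, 95% confidence interval -2.61 to -0.61), or 3.05-fold lower, and -1.38 (-2.38 to -0.38), or 2.60-fold lower, with limma adjusted p of 0.070 and 0.086. PIGR was altered at both doses when control replicate 2, the lowest control, was left out: -2.03 with a limma adjusted p of 0.036 and -1.80 with 0.034, where over the limma alternatives p ranged from 0.036 to 0.25 and from 0.034 to 0.21.

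On day 7 PIGR was -0.18, -0.51, 0.51 and -0.09 after 6.7 Gy and -0.26, 0.98, -0.49 and -0.10 after 7.4 Gy, all 8 within the control range. The day 7 level exceeded that of day 4 by 1.21 after 6.7 Gy and by 1.07 after 7.4 Gy (limma adjusted p = 0.19 and 0.23). On day 12 it was -0.35 and -0.87 after 6.7 Gy and -0.63 and -1.15 after 7.4 Gy, with differences from control of -0.95 and -1.23 and limma adjusted p of 0.66 and 0.61. Slides 3 and 4 held a 7.4 Gy day 4 animal beside a control, and the differences from that control were -1.96 and -3.0, while the 6.7 Gy day 4 animals on slides 1 and 2 differed from theirs by -1.17 and +0.63. The sign on slide 2 was thus opposite to the others; the animal there was replicate 4.

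**Figure D3:**
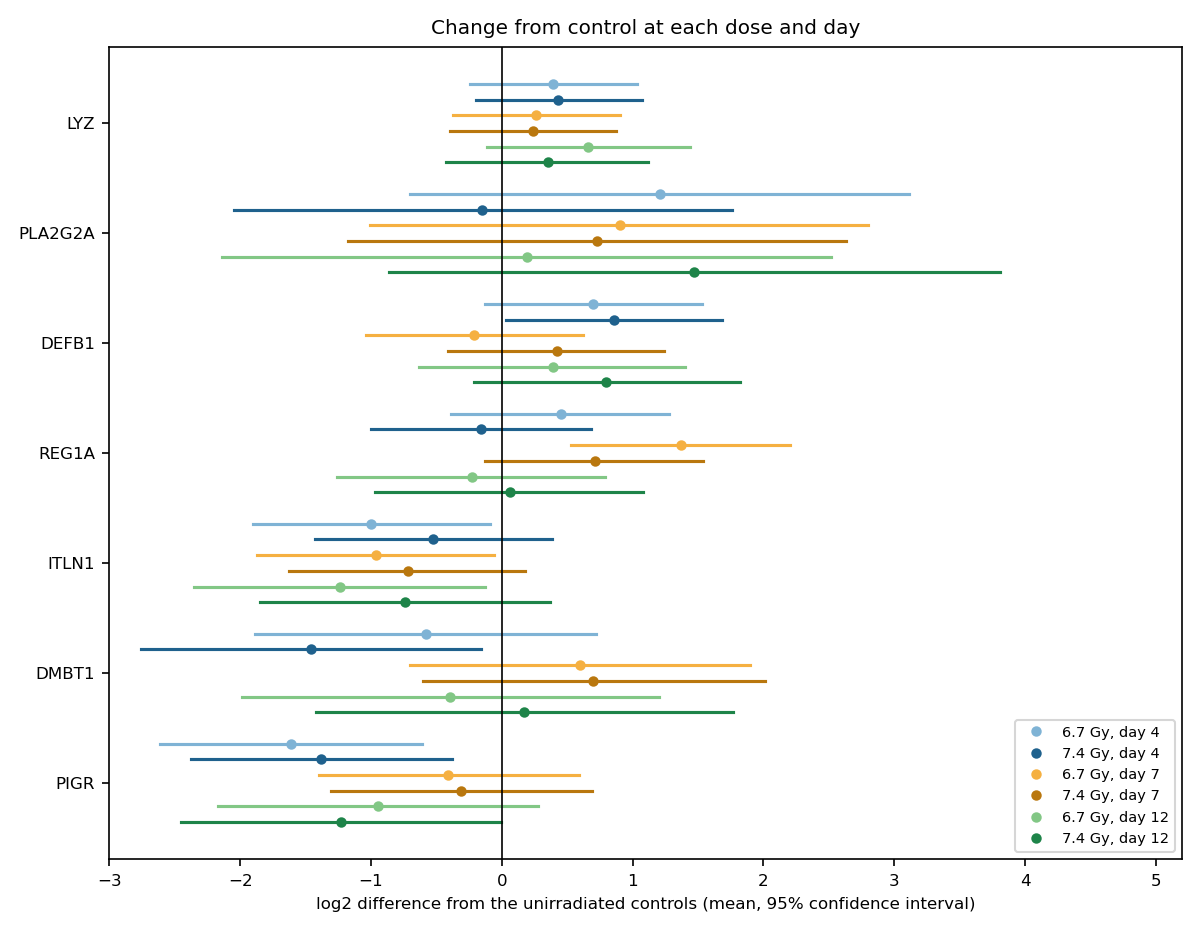
Log2 difference from the 4 unirradiated controls (x axis, points with 95% confidence intervals from limma) for each member gene (y axis), coloured by dose and day. Intervals lie wholly below 0 for PIGR on day 4 at both doses and on day 12 after 7.4 Gy, for ITLN1 at every time after the lower dose and for DMBT1 on day 4 after 7.4 Gy, and wholly above 0 for REG1A on day 7 after 6.7 Gy and DEFB1 on day 4 after 7.4 Gy; none passed after adjustment over all probes.

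Plasma cells make the IgA that PIGR carries, and 0 of their 4 tested markers were altered on day 4, near the 0.978% and 2.33% of all probes altered at the lower and the higher dose. The mean log2 signal of these plasma cell markers, 4 of a list of 5 (MZB1, TNFRSF17, XBP1 and DERL3) was 0.55, 0.73, 1.28 and 2.99 in controls, -0.05 to 0.53 on day 4 after 6.7 Gy and -0.53 to 0.96 on day 4 after 7.4 Gy. The control at 2.99 stood apart, and the highest 7.4 Gy day 4 animal was above the lowest pair of controls. Control replicates 3 and 4 were the highest controls for both PIGR and these markers. All 4 markers had lower means in each of the 6 irradiated groups, but only TNFRSF17, a receptor of plasma cells, was altered, by -2.97 on day 7 after 7.4 Gy (limma adjusted p = 0.012), where 1 of the 4 arrays, at -7.64, did not have it well above background and 0.568% of all probes were altered. On day 7 PIGR was within the control range while the markers were -0.51 to 0.71 and -1.62 to 0.04. The part of these cells in the PIGR values was not tested.

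Of 7 tested enterocyte markers in a list of 11, 2 were altered at each dose on day 4, against 0.978% of all probes at 6.7 Gy and 2.33% at 7.4 Gy, and 0 on days 7 and 12. VIL1, an actin-bundling protein of the brush border, fell by 1.32 after 6.7 Gy and by 1.27 after 7.4 Gy (limma adjusted p = 0.0011 and 0.00085). KRT20, a keratin of differentiated epithelium, fell by 1.05 after 6.7 Gy, and FABP1, a fatty acid binding protein, fell by 1.22 after 7.4 Gy, with limma adjusted p of 0.015 and 0.016. The mean over the 7, which includes the mostly undetected FABP2, was 2.78 to 3.62 in controls, 2.09 to 3.46 on day 4 after 6.7 Gy, 2.24 to 3.09 on day 4 after 7.4 Gy, and 2.95 to 3.66 over both day 7 groups. Their part in the day 4 values of PIGR and DMBT1 was not tested.

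Of the other cell types, counted beside the same shares of all probes (0.978% at 6.7 Gy and 2.33% at 7.4 Gy on day 4), the goblet cell gene CLCA1 fell by 1.22 and by 1.08 on day 4 (limma adjusted p = 0.027 and 0.028), 1 of 4 tested markers at each dose. The fibroblast matrix genes COL3A1, DCN and LUM were higher by 1.01, 1.26 and 1.09 on day 4 after 7.4 Gy (limma adjusted p = 0.037, 0.0097 and 0.014), 3 of 5 tested. Of 6 markers of crypt stem and cycling cells 4 were tested, and ASCL2, described with the secretory lineage below, was altered on day 4 at both doses and no other in any comparison with control. The list median was +0.84 and +0.89 on day 4 and +0.65 and +0.46 on day 7 (lower dose first), against -0.10 to 0.00 for all probes tested. OLFM4, a glycoprotein of crypt base cells named here after its values were seen, was well above background on 1 of 4 control arrays and on 2, 4, 4 and 3 of 4 in the same order, so that its difference from control is not given; it enters the values of this list. The stem cell receptor LGR5 differed by -0.04 to +0.09, so the list median is not a change shared by all 4 genes. TOP2A was the only cycling marker tested, since MKI67 had no probe of that symbol, and it was not altered against control. The list mean was -2.71 to -2.09 in controls, -2.66 to 0.16 and -1.60 to -0.83 on day 4, and -1.82 to -0.68 and -2.32 to -0.96 on day 7. The part of these cells in the REG1A and PIGR values was not tested. No tested marker of macrophages, smooth muscle, mesothelium or pancreatic acinar cells was altered against control. Smooth muscle markers were 5.42 in control replicate 1 against 7.70 to 7.84 in the other controls.

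Of 6 markers of the Paneth cell itself 4 were tested, among them members LYZ and PLA2G2A, and 0 were altered against control, which is no result beside the 0.0443% to 2.33% of all probes altered in those comparisons. DEFA6, a Paneth cell α-defensin, differed by -0.48 to +0.16 and PRSS2, a trypsinogen, by -0.61 to +0.36. The list mean was 4.15 to 5.08 in controls and 4.22 to 6.04 over all irradiated animals, the highest again in replicate 4 of the 6.7 Gy day 4 group.

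**Figure D4:**
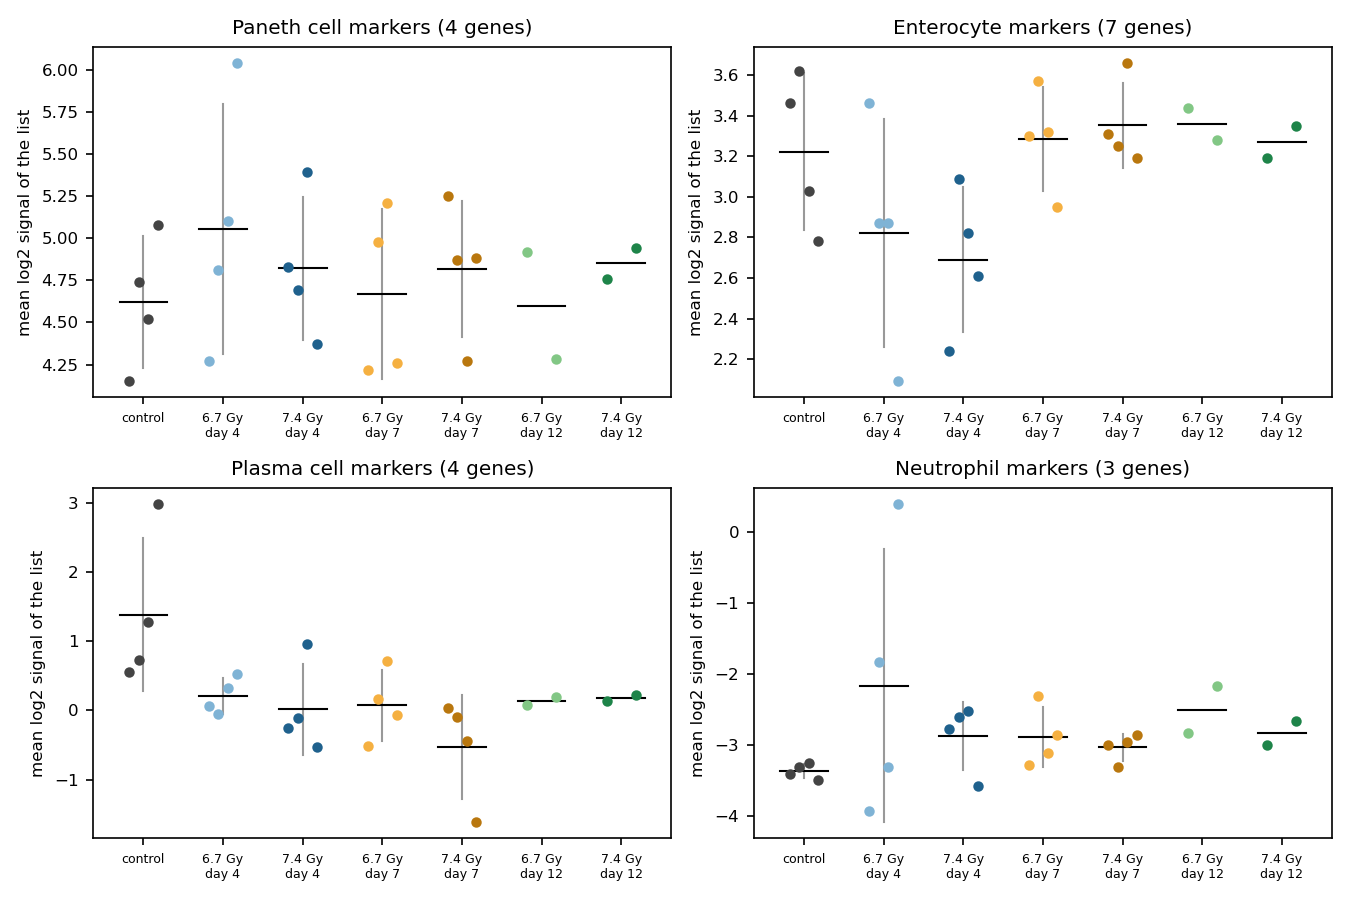
Mean log2 signal over the tested markers of 4 cell types (y axis) in each animal by group (x axis); black lines are group means and grey bars 1 SD for groups of 4. Plasma cell means run from 0.55 to 2.99 in controls, and 1 animal of the 6.7 Gy day 4 group stands at 0.39 in the neutrophil panel against -3.50 to -3.26 in controls.

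That animal, replicate 4 of the 6.7 Gy day 4 group, was the highest of all 24 for PLA2G2A (6.56), REG1A (7.91) and DMBT1 (4.39), and it was the highest of its group for LYZ (2.18), DEFB1 (1.82) and PIGR (-0.29) and the lowest for ITLN1 (4.06). Its array had the lowest median correlation with its own group of any array, 0.964. S100A8 and S100A9, calcium-binding proteins abundant in neutrophils and also made by stressed epithelium, were 1.23 and 2.14 there, against -6.35 to -5.72 and -2.39 to -1.97 in controls. CSF3R, a growth factor receptor of granulocytes, was -2.2, below all 4 controls (-2.0 to -1.75). Only 3 of 6 neutrophil markers were tested, and their part in the member values of this animal was not tested. The same animal was the highest of all 24 for the mean of the crypt stem and cycling markers (0.16, against -2.71 to -2.09 in controls) and of the secretory lineage regulators (-1.37, against -2.52 to -2.15), both of which include OLFM4, and of the other antimicrobial effectors (1.3, against 0.31 to 1.02). It was the lowest of all 24 for the mean of the enterocyte markers (2.09, against 2.78 to 3.62) and of the goblet cell markers (3.69, against 3.96 to 4.76). Without replicate 4 the day 4 change after 6.7 Gy was +0.41 for PLA2G2A, -0.05 for REG1A, -1.43 for DMBT1 and -1.94 for PIGR. Replicate 3 of the 7.4 Gy day 4 group was likewise the highest of its group for PLA2G2A (4.45), REG1A (6.55), DMBT1 (1.88), LYZ (1.81) and PIGR (-0.19). It was the lowest for ITLN1 (4.28) but not the highest for DEFB1 (1.55).

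Between the doses 0 of 7 members were altered at each of days 4, 7 and 12. The share of all probes altered was 0%, 0% and 0.00277%. Without adjustment of the limma p the member count was also 0 on each day, against 153, 141 and 559 of the 36108 probes tested. The member count was also 0 on each day by the methods' t-test with Benjamini-Hochberg adjustment. The largest dose difference was PLA2G2A on day 4, at -1.36 for 7.4 Gy minus 6.7 Gy (95% confidence interval -3.26 to 0.55). For DMBT1 it was -0.88 (-2.18 to 0.43) on day 4 and +0.10 (-1.20 to 1.41) on day 7, and for PIGR +0.23 (-0.77 to 1.23) and +0.10 (-0.9 to 1.1), so that differences of 2-fold between doses lie within these intervals.

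Between days, 0 of 7 were altered from day 4 to day 7 after 6.7 Gy, against 0.354% of all probes, and 0 from day 4 to day 12, against 2.59% after 6.7 Gy and 1.80% after 7.4 Gy. Before adjustment, a limma p under 0.05 and a 2-fold difference were met by 1 gene from day 4 to day 7 after 6.7 Gy. After 7.4 Gy these limits were met by 2 genes. From day 4 to day 12 they were met by 0 after 6.7 Gy and 1 after 7.4 Gy. Of the 36108 probes tested, 625 and 722 met them from day 4 to day 7 (lower dose first). From day 4 to day 12, 2050 and 1794 did. The methods' t-test with Benjamini-Hochberg adjustment called 0 of the 7 genes in each comparison. PLA2G2A differed by +1.62 (-0.71 to 3.95) from day 4 to day 12 after 7.4 Gy. DMBT1 differed by +1.63 (0.04 to 3.23; limma adjusted p = 0.24) from day 4 to day 12 after 7.4 Gy, with both animals above all 4 of day 4, and by +0.19 after 6.7 Gy.

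Animals of the same group differed together for some members. After group means were subtracted, DMBT1 and REG1A had a Pearson r of 0.80 (Spearman rho 0.77) over the 24 animals, with permutation p within groups of 0.0031 and 0.00057 and adjusted p over 21 pairs of 0.033 and 0.012. Without the 2 animals farthest from the DMBT1 median r was 0.62. DMBT1 and PIGR had r = 0.63 (rho 0.59), with permutation p of 0.00047 and 0.0045, adjusted p of 0.0099 and 0.047, and r = 0.58 without the same 2 animals. These were the 2 pairs of 21 that passed by both measures. With slide means removed as well, an alternative added after the data were seen, r was 0.80 and 0.70; a slide holds 4 arrays of different groups, too few for a value within it.

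**Figure D5:**
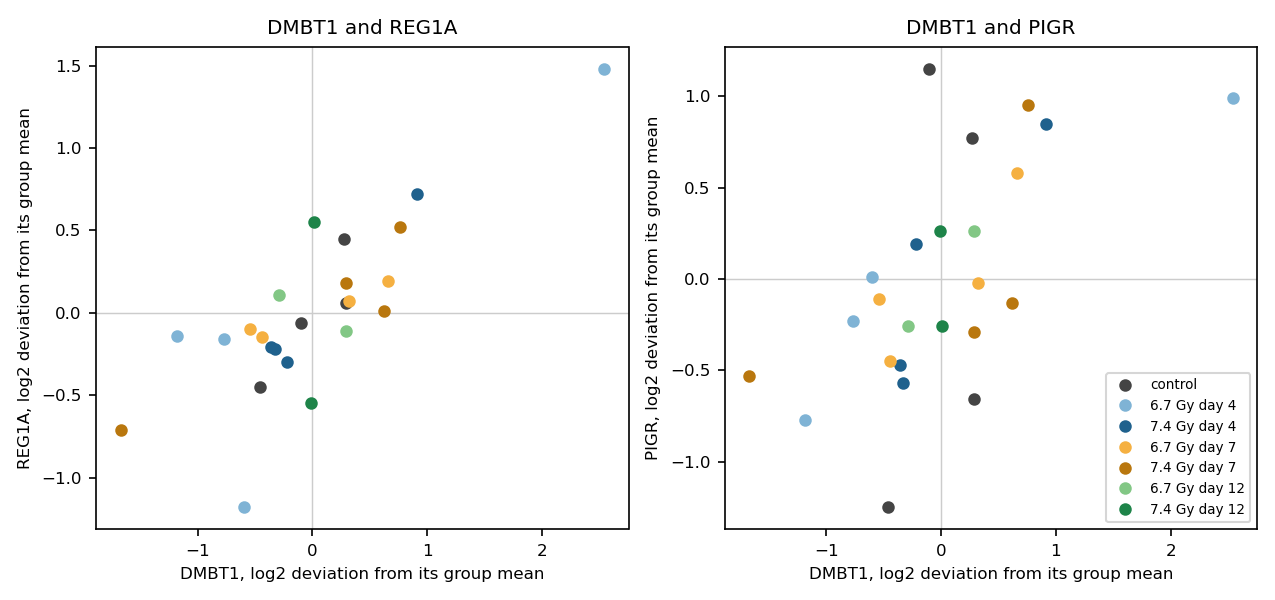
Deviation of each of the 24 animals from its group mean in log2 signal for DMBT1 (x axis) against REG1A and PIGR (y axes), coloured by group. The point at the right of both panels is replicate 4 of the 6.7 Gy day 4 group; r is 0.80 for REG1A and 0.63 for PIGR, and 0.62 and 0.58 without the 2 animals farthest from the DMBT1 median.

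Over all 24 arrays, the probes whose pattern was most like that of each member were found by Pearson r, given as a description; the arrays share the same normalization. For DMBT1 they included HMHA1 (0.931) and PDHA1 (0.861). For REG1A they were CENPE (0.883), TRAIP (0.864) and KLKB1 (0.861), and for PIGR TNFSF13 (0.857), PDZK1IP1 (0.821) and ATP10B (0.816). ITLN1 was most like CALCA (0.859), CALCB (0.811) and RASSF1 (0.736). LYZ, DEFB1 and PLA2G2A had no gene above 0.716, led by B3GAT1 (0.697), FAM120B (0.716) and LEPROTL1 (0.70). TNFSF13 encodes APRIL, a survival factor of plasma cells, and was itself -0.46 and -0.86 on day 4. Since it was picked for its likeness to PIGR on these same arrays, these values are no separate observation.

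The rest of epithelial defence was counted over lists of further genes. Of 36 other antimicrobial effectors 26 were tested and 0 were altered in any of the 6 comparisons with control, with a median change of -0.30 to +0.10 against -0.10 to +0.06 for all probes tested. With 0.0443% to 2.33% of all probes altered there, 0 of 26 is near the background. Of 31 partners and regulators of epithelial defence, such as cytokine receptors and bacterial sensors, 26 were tested and 1 was altered: CD14, a receptor for bacterial lipopolysaccharide, was higher by 1.14 on day 4 after 7.4 Gy (limma adjusted p = 0.011). Beside the 2.33% of all probes altered in that comparison, 1 of 26 is no result about the list. The median of that list lay between -0.23 and -0.08.

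Of 16 regulators of the secretory lineage, from which Paneth cells arise, 12 were tested and 2 rose on day 4 at both doses, against 0.978% of all probes altered at 6.7 Gy and 2.33% at 7.4 Gy. EPHB3, a receptor that positions Paneth cells at the crypt base, rose from -2.21 to -0.61 and -0.69, by +1.60 and +1.52 (limma adjusted p = 0.0015 for each). ASCL2, a transcription factor of crypt stem cells, rose from -2.00 to -0.60 and -0.31, by +1.40 and +1.69 (limma adjusted p = 0.00049 and 4e-05). None of the 12 was altered against control on days 7 and 12, and the list median on day 4 was -0.06 and +0.04 against -0.10 and -0.07 for all probes tested. On day 4, when these crypt genes were higher and VIL1 was lower, LYZ differed from control by +0.39 and +0.43 and DEFA6 by -0.04 and +0.16, none past the test.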

How the data were processed

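RNA from the ileum of 24 macaques was hybridised to Agilent 1-colour arrays, 1 array per animal. The deposited scanner files hold the processed signal intensity of each spot (Feature Extraction 11.0.1.1, per the file headers), and the authors' normalized table holds log2 values that they scaled to the 75th percentile and that are centred on each probe's median. The authors excluded RNA of low integrity. Here, the log2 processed signal, averaged over spots of a probe, was taken minus the 75th percentile of each array, and 36108 of 43603 probes, those detected above background on all arrays of 1 or more groups, were tested with limma 3.58.1 (R 4.3.3) in 1 fit of 7 group means with Benjamini-Hochberg adjustment. A probe was altered at an adjusted p under 0.05 and a fold of at least 2, and each gene was read from its tested probe of highest mean signal. The scripts were tested on simulated data.

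Array number limits the precision. The 4 arrays called day 12 carry that day in their titles, while the treatment text names a later day. Replicates are separate animals. The genes named were all members with a probe, further probes of a member where the call or sign differed, list genes altered in at least 1 comparison with control, and the 3 most alike genes by Pearson r (1 of them is not reported here); other genes named from the marker lists, with values but no call (such as DEFA6, PRSS2, FABP2, FABP6, LGR5, CSF3R, S100A8, S100A9, MZB1, XBP1 and DERL3), and other probes were chosen after their values were seen. Members and lists were chosen with earlier results of these data known. Alternatives were the authors' normalized table, normexp with an offset of 50 (on median signals, since the scanner files used here hold no mean signal), quantile normalization, other filters, slide and position terms, a replicate block, the methods' t-test and leaving out each animal. Correlations used 100000 permutations within groups. RefSeq names were used without coordinates, since the assembly differs from that of the array design.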

Additional observations from a re-analysis of the deposited data

Results flagged for a closer look

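In groups of 4, 3 member values stood far from the others of their group by Dixon's test, out of 35 groups tested; chance alone gives about 1 in 20. DMBT1 was 4.39 in replicate 4 of the 6.7 Gy day 4 group, with a gap to the nearest animal of 0.84 of the group's range. Replicate 3 of the 7.4 Gy day 4 group was at 1.88 for DMBT1 (0.89 of the range) and at 6.55 for REG1A (0.91 of the range), in each case the highest of its group.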

How the results depend on the processing

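The count of altered members, 0 in each of the 13 comparisons, became 1 in these cases. It was 1 for day 7 against day 4 at 7.4 Gy (DMBT1) under normexp, with probes above background on all 24 arrays, with an intensity trend and robust moderation and with slide as a random block, and 1 for 6.7 Gy day 7 against control (REG1A) with only those 2 groups in the fit. By the methods' t-test without adjustment it was 1 for 7.4 Gy day 4 (DMBT1), 6.7 Gy day 7 (REG1A) and 6.7 Gy day 12 (ITLN1) against control, and for day 7 against day 4 at 6.7 Gy (PIGR) and at 7.4 Gy (DMBT1) and day 12 against day 4 at 7.4 Gy (DMBT1). With 1 animal left out it ranged from 0 to 1 for both doses on day 4 against control (PIGR, without control replicate 2), for day 7 against day 4 at 6.7 Gy (DMBT1, without replicate 4 of the 6.7 Gy day 4 group) and at 7.4 Gy (DMBT1, without replicate 3 of the day 7 group), and was 0 in the other comparisons. Why these calls moved was not tested.

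Of 42 member values against control, 11 changed sign in 15 of 868 alternatives, and none of the 11 was altered. With array position in the fit REG1A and LYZ on day 4 after 6.7 Gy were -0.22 and -0.06, and ITLN1 and LYZ on day 4 after 7.4 Gy were 0.21 and -0.48. The same term moved PLA2G2A and REG1A on day 4 after 7.4 Gy from -0.15 and -0.16 to -2.12 and -1.48, with no change of sign. With 1 animal left out in turn, REG1A ranged from -0.05 to 0.84 on day 4 after 6.7 Gy and, on day 12 after 7.4 Gy, from -0.49 to 0.6 (-0.09 without control replicate 2). PLA2G2A ranged from -0.7 to 0.22 on day 4 after 7.4 Gy (0.18 without control replicate 4 or replicate 4 of the irradiated group) and from -0.84 to 1.22 on day 12 after 6.7 Gy. DEFB1 ranged from -0.43 to 0.04 on day 7 and from -0.32 to 1.1 on day 12 after 6.7 Gy, PIGR from -0.73 to 0.07 on day 7 after 7.4 Gy and LYZ from -0.05 to 0.74 on day 12 after 7.4 Gy. A position term could be fitted against control only on day 4, and not between days. Its step from position 1 to position 2 rests on the 6.7 Gy day 4 animals alone. All controls were at position 1 and all 7.4 Gy day 4 arrays at position 2.

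With the replicate number as a block 0 members were altered in all 13 comparisons; same-numbered animals correlated between -0.26 and 0.23, so the numbers were not taken to pair the animals. The precision is limited by 2 to 4 animals a group, with within-group SDs of 0.45 to 1.39 on the log2 scale; signal over background was no limit for the members.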
